A study of Homo sapiens with 34 samples.

Results

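CD43+ blood cells sorted on day 16 of haematopoietic differentiation were compared with CD43+ cells sorted on day 12, 3 samples against 3, which are 6 of the 34 samples of the series. They were chosen by their labels and not by any measured value. All came from H1, 1 line of human embryonic stem cells, through embryoid bodies that were attached to collagen IV and cultured in a defined medium. BMP4 and VEGF started mesoderm formation, VEGF was the only growth factor afterwards, and no haematopoietic cytokine was added to any group. The study's methods call the 3 samples of a population independent biological replicates. The day 12 sort used CD43 alone, whereas the day 16 cells were labelled CD43+/CD45+, so that 4 more days of culture and a second gate separate the groups and cannot be told apart. The cells sorted as negative, CD43- on day 12 and CD43-CD45- on day 16 (3 samples each), were set beside them, and are called CD43- on both days. Their gate changed as well, so day and gate cannot be told apart in their change either. The same holds for any difference between the CD43+ and CD43- changes.

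CD43 (sialophorin) marks the first committed blood cells that form from pluripotent cells, and CD45 is the phosphatase of most nucleated blood cells. The earliest blood of the embryo, which comes from the yolk sac, consists of primitive erythroid cells with embryonic globins, of megakaryocytes and of macrophages, and is followed by cells with granulocyte, mast cell and further myeloid programmes. Interferons are secreted alarm signals that act through the JAK-STAT pathway and switch on a shared set of antiviral genes, while immediate early genes are transcription factor genes switched on within minutes by growth factors, stress or handling.

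The deposited values were normalised tag counts that share 1 set of sorted values in all samples, so that a value mostly carries a gene's rank within its sample, the highest possible value is 90700, and the sequencing depth behind each value is unknown. Changes were tested with limma on log2(value + 1), in 1 fit over 33 samples. A gene was called, and is said to have risen or fallen, when the adjusted p was below 0.05 and the change above 4-fold. All adjusted p below are from limma with Benjamini-Hochberg adjustment over the 19788 genes tested. Errors of fold changes are standard errors from the fit over 33 samples, with n = 3 in each group compared. Each gene's variance came from all 33 samples, so errors and p do not measure the spread of the 6 compared samples alone. LYZ, for example, stood at 90700 in all 6 and had an error of 1.04. Whether a gene was called therefore also depends on its spread in the other populations.

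SPN, which encodes CD43, stood at 4458, 7132 and 6791 in the 3 day 12 samples and at 2870, 2796 and 2338 on day 16 (log2 fold change -1.17 ± 0.37, adjusted p = 0.0122). All day 16 values lay below all day 12 values, by less than 4-fold, and in the CD43- samples the means were 159 and 178. PTPRC, which encodes CD45, was already high on day 12 at 12848, 8975 and 6920, against 12014, 10084 and 15868 on day 16 (log2 fold change 0.42 ± 0.92, adjusted p = 0.745). The 2 groups overlapped for PTPRC, although only the later one was sorted on CD45. In bulk samples such as these, more cells of a type and more RNA per cell cannot be told apart.

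Between day 12 and day 16, 750 genes rose (3.79% of those tested) and 1041 fell (5.26%). With the adjusted p alone, 4215 genes were higher (21.3%) and 4172 lower (21.1%), and the median log2 fold change over all genes was 0.05. The called genes were mostly of low level. Split at the median of their mean over the 6 samples, 69 of the 9894 higher genes rose and 71 fell, whereas 681 and 970 of the 9894 lower genes did so. The share called in each list below therefore also depends on the level of its members. Restricted to genes with a mean value of at least 100, a limit set after the data were seen, 132 genes rose and 161 fell. Of the risen genes 560 were protein coding (74.7%), and of the fallen genes 409 (39.3%).

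In the genes that fell, the day 12 libraries stood above those of days 9 and 16 in both sorted populations. Genes known only by the name of a genomic clone made up 529 of the 1041 fallen genes, and 21.1% of the 2513 such genes tested fell while 5.65% rose. Over these 529 genes the mean log2 level was 2.47 to 2.66 in the day 9 CD43+ samples, 5.20 to 5.62 on day 12 and 1.61 to 1.71 on day 16. The same genes had means of 4.05 to 4.22 in the day 12 CD43- samples, against 1.95 to 2.06 on day 9 and 1.14 to 1.18 on day 16. For the 750 risen genes the mean was 3.85 to 3.90 on day 9, 2.72 to 3.04 on day 12 and 5.37 to 5.61 on day 16. In the risen genes day 16 thus lay further from day 9 than day 12 did. The contrast that chose the fallen and risen genes sets the gap between day 12 and day 16 in CD43+ cells. Genes chosen in this way also tend to lie between the 2 on other days. The levels on days 6 and 9 lay between the 2 and are described only. The study used 2 sequencing providers and the labels do not give the provider of a sample, so that day, gate and any difference in library making cannot be told apart. In the CD43- cells, 883 genes rose (4.46%) and 1182 fell (5.97%), among them 234 of the 750 genes that rose and 645 of the 1041 that fell in CD43+ cells. The difference between the 2 changes, tested in the same fit, was higher in CD43+ cells in 566 genes (2.86%) and lower in 429 (2.17%). Each gene group below is therefore given with its day 9 and CD43- values where these bear on it.

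**Figure D1:**
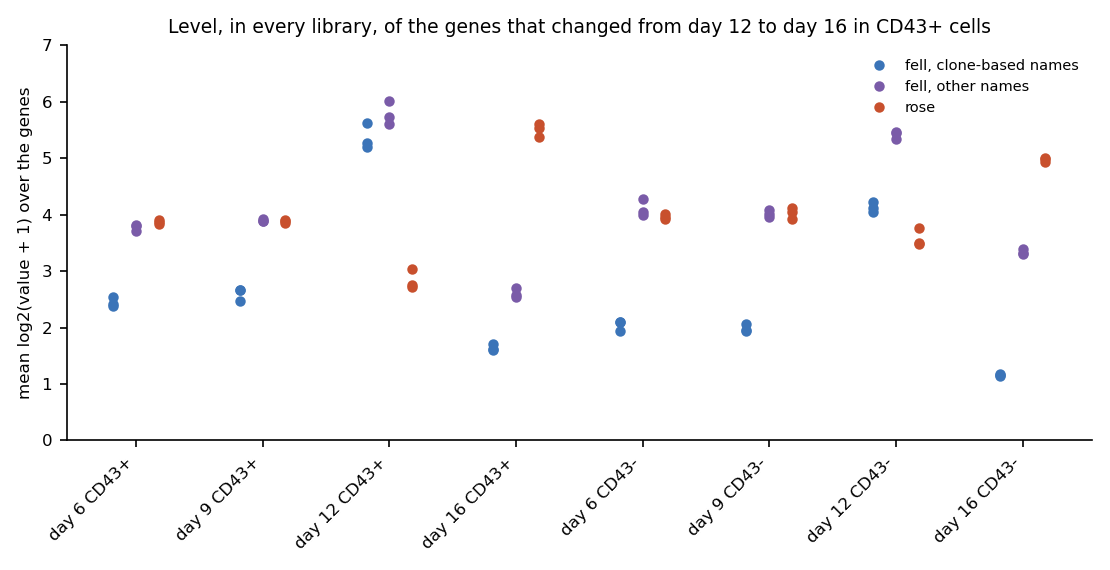
Mean log2(value + 1), in each of the 24 sorted libraries (1 point a library), over the genes that fell with clone-based names (529 genes), fell with other names (512) or rose (750) between day 12 and day 16 in CD43+ cells. The genes that fell are highest and the genes that rose lowest in the day 12 libraries of both populations, with day 9 lying between day 12 and day 16 in CD43+ cells. The genes were chosen by their change in CD43+ cells, which favours such a day 9 level there.

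Interferon-stimulated genes were higher on day 16. Many such genes carry an interferon-stimulated response element in their promoters. The core of this element, GAAA followed by any 2 bases and again GAAA, was searched on both strands in the 250 bases before each start in a RefSeq promoter table (GRCh38.p14), in which 36 of the 46 genes of the interferon list were matched by symbol. It was present in 22 of these 36 promoters (61.1%) and in 839 of 27305 promoters in the whole table (3.07%). Within the list it was in 10 of the 14 matched promoters of called genes (71.4%) and in 11 of the 21 of genes not called (52.4%). Of the risen genes outside the list, 20 of 407 matched promoters held it (4.91%). The list was chosen as interferon-stimulated genes, so its excess over the whole table is no result about the rise. The stretches that hold the matches are shown for 7 genes of the list, 5′ to 3′ on the strand of the gene, with each match in capitals (it starts with GAAA, or with TTTC when it lies on the other strand), to show how their number and orientation vary.
IFI44L, chr1:78620264-78620404, plus strand: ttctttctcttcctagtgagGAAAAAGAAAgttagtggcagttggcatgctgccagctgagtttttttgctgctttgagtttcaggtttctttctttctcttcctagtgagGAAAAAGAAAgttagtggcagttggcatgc
IFI44, chr1:78649751-78649788, plus strand: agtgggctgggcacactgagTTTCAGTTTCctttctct
IFI6, chr1:27672256-27672368, minus strand: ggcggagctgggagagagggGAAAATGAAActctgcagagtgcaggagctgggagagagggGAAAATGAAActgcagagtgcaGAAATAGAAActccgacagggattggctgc
IFIT1, chr10:89392487-89392549, plus strand: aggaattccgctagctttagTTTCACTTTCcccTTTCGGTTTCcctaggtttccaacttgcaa
IFIT3, chr10:89327821-89327904, plus strand: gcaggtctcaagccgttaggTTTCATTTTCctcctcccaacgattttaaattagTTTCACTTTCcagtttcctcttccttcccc
IFI27, chr14:94110608-94110670, plus strand: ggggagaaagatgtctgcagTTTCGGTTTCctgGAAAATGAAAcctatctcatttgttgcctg
ISG15, chr1:1013364-1013419, plus strand: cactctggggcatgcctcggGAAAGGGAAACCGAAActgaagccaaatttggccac
IFI44L holds 2 matches in the same orientation within a repeated stretch, IFI6 holds 3, ISG15 holds 2 that overlap, and in IFIT1 and IFIT3 both matches lie on the other strand. A match says only that these letters are present, and binding was not measured.

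Of 45 interferon-stimulated genes tested, 17 rose (37.8%, against 3.79% of all genes) and none fell (limma, adjusted p below 0.05 and more than 4-fold). 44 had an adjusted p below 0.05 on the higher side, and the exception, SIGLEC1, also had a positive fold change. Their median log2 fold change was 1.84, against 0.05 over all genes. In all 45 every day 16 value lay above every day 12 value, an order found in 23.7% of all genes. IFI44L, an interferon-induced cytosolic protein, was 181, 32 and 13 on day 12 and 2882, 3262 and 2110 on day 16 (log2 fold change 5.95 ± 0.65, adjusted p = 6.61e-08). Its neighbour IFI44 was 104, 20 and 6 and then 968, 1009 and 550 (log2 fold change 5.03 ± 0.68, adjusted p = 1.58e-06). Both genes varied more than 10-fold between the day 12 samples, with replicate 1 highest and replicate 3 lowest, and were nearly even on day 16. SAMD9L, an antiviral and growth-restricting factor, was 160, 50 and 14 and then 1008, 1176 and 978 (log2 fold change 4.40 ± 0.62, adjusted p = 3.14e-06). IFI27 was 50, 70 and 29 and then 1128, 1298 and 580 (log2 fold change 4.31 ± 0.32, adjusted p = 9.43e-11). IFI6, an antiviral protein of the endoplasmic reticulum, was already well above the median gene on day 12 at 2566, 2042 and 1095, and reached 12854, 12854 and 9902 (log2 fold change 2.72 ± 0.33, adjusted p = 2.88e-07). IFIT1, which binds viral RNA lacking the host cap modification, was 385, 374 and 127 and then 2278, 2380 and 1968 (log2 fold change 3.06 ± 0.53, adjusted p = 4.95e-05), and IFIT3, its partner, was 640, 822 and 310 and then 3159, 3258 and 2574 (log2 fold change 2.45 ± 0.40, adjusted p = 2.20e-05).

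Some of the best-known members changed by less than 4-fold and were not called. ISG15, a ubiquitin-like modifier, was 946, 1094 and 582 on day 12 and 3244, 3754 and 2792 on day 16 (log2 fold change 1.94 ± 0.19, adjusted p = 7.61e-09). MX1, a GTPase that blocks virus entry to the nucleus, was 2774, 1700 and 814 and then 5641, 6250 and 4786 (log2 fold change 1.82 ± 0.45, adjusted p = 0.00187). For both genes the groups did not overlap. In 43 of the 45 genes replicate 3 was the lowest of the day 12 samples, and in 36 it was the lowest on day 16.

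In all 45 genes every day 16 value also lay above every day 9 value. In 31 of the 45 every day 12 value lay above every day 9 value as well. How many of all genes have either order against day 9 was not counted, so both counts are described only. IFI44L had a mean of 4.33 ± 2.52 (SD, n = 3) on day 9, IFIT1 of 156 ± 10.6 and ISG15 of 1010 ± 66.3. In the CD43- cells 22 of the 45 genes rose, against 4.46% of all genes there. Of the 22, 13 were among the 17 that rose in CD43+ cells. The median log2 fold change of the 45 in CD43- cells was 1.97. The difference of change between the populations passed the test in 1 of the 45, the GTPase gene GBP1. The summed level of the list was 30195 to 57976 in the day 12 CD43+ samples and 121494 to 147383 on day 16.

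**Figure D2:**
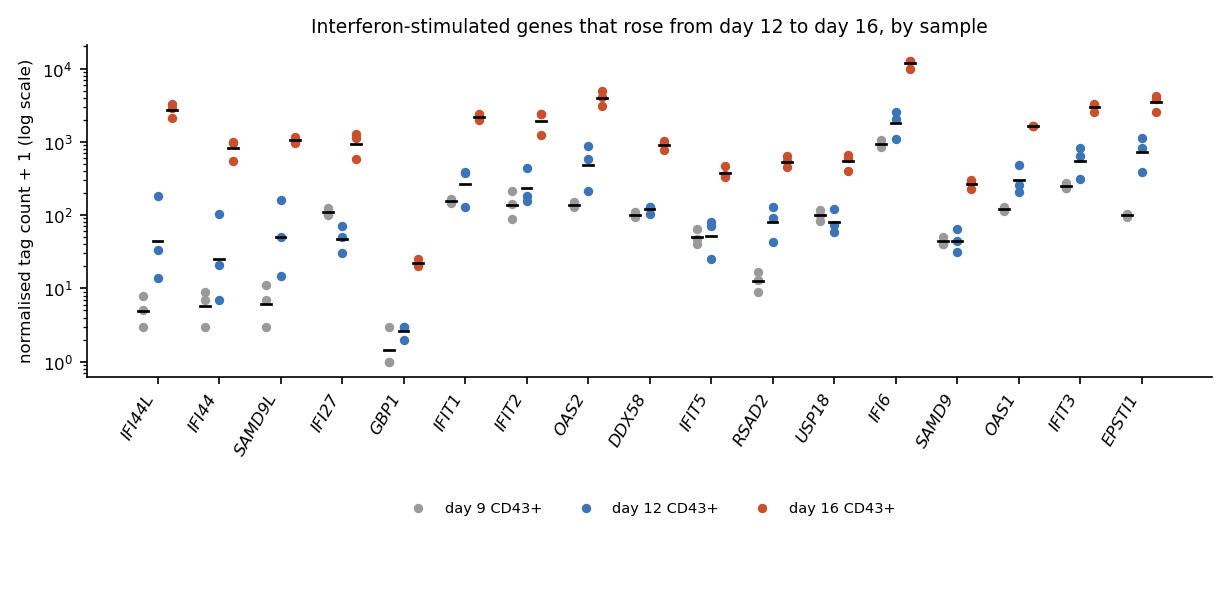
Normalised tag count + 1 (log axis) of the 17 interferon-stimulated genes that rose, in each CD43+ sample of days 9, 12 and 16 (1 point a sample, bars at the mean of the log values). In each gene the 3 day 16 samples lie above the 3 day 12 samples and above the 3 day 9 samples.

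Of the interferons and their receptors, 9 were tested and 1 rose (11.1%, against 3.79% of all genes). IFNB1, which encodes interferon beta, was 6, 12 and 3 on day 12 and 52, 52 and 8 on day 16 (log2 fold change 2.04 ± 0.65, adjusted p = 0.0133), with the third day 16 sample inside the day 12 range. Its call was lost under 6 of the alternatives, among them when day 16 replicate 1 (1.61), day 16 replicate 2 (1.61) or day 12 replicate 3 (1.62) was left out, or when only the compared populations were fitted (adjusted p = 0.0818). The receptor genes IFNAR1 and IFNAR2 had log2 fold changes of 0.42 and -0.45 and were not called. BATF2, an interferon-induced leucine zipper factor outside these lists and 1 of the largest rises, was 3, 8 and 11 and then 258, 216 and 210 (log2 fold change 4.91 ± 0.55, adjusted p = 9.57e-08), and its change was larger than in CD43- cells (difference 2.23 ± 0.78, adjusted p = 0.0489).

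MHC class I molecules present peptides from inside the cell, and interferons raise them. 3 of 17 genes of this pathway rose (17.6%, against 3.79% of all genes) and 1 fell, with a median log2 fold change of 0.60. B2M, the shared light chain, was 22806, 18748 and 17332 on day 12 and stood at the highest possible value, 90700, in all 3 day 16 samples (log2 fold change 2.22 ± 0.15, adjusted p = 7.11e-12), so that its change may be understated. HLA-F was 88, 72 and 20 and then 268, 304 and 228 (log2 fold change 2.37 ± 0.45, adjusted p = 1.55e-04), and without day 12 replicate 3 its log2 fold change was 1.72 and not called. The immunoproteasome subunit PSMB9 was 96, 46 and 30 and then 208, 252 and 215 (log2 fold change 2.11 ± 0.56, adjusted p = 0.00332), and was likewise lost without day 12 replicate 3 (1.74). HLA-G, the class I gene of the trophoblast, went the other way, from 233, 252 and 236 to 18, 47 and 30 (log2 fold change -2.99 ± 0.41, adjusted p = 2.14e-06), with a day 9 mean of 17.7 ± 10. In CD43- cells 3 of the 17 genes rose and 1 fell, against 4.46% and 5.97% of all genes there, with a median of 1.05. HLA-F rose (log2 fold change 2.99) and HLA-G fell (-2.25) in those cells too. HLA genes share much of their sequence, and how reads were split among them is uncertain. Of 15 MHC class II genes 1 rose in CD43+ cells, HLA-DQB1 (6.67%, against 3.79% of all genes). It was 50, 16 and 4 and then 65, 52 and 82 (log2 fold change 2.02 ± 0.62, adjusted p = 0.0104). Its call was lost without day 12 replicate 3 (1.17) or day 16 replicate 3 (1.86), or with only the compared populations fitted (adjusted p = 0.078). HLA-DRA was 1990, 404 and 717 and 1684, 1828 and 2322 (log2 fold change 1.21 ± 0.66, adjusted p = 0.141).

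Macrophage genes were high in both groups, with 1 day 12 sample close to the day 16 level. Of 36 macrophage and monocyte genes 3 rose (8.33%, against 3.79% of all genes) and none fell, with a median log2 fold change of 0.81 and 32 positive. In 33 of the 36, day 12 replicate 1 was the highest of its group, and in 24 it lay above the lowest day 16 sample. The other 2 day 12 samples lay below all day 16 samples in 31 of the 36, an order found in 30.0% of all genes. CD163, the scavenger receptor for haemoglobin, was 17368, 4720 and 2706 on day 12 and 17368, 15868 and 20424 on day 16 (log2 fold change 1.55 ± 0.72, adjusted p = 0.0845). CSF1R, the receptor for the macrophage growth factor, was 29020, 10439 and 10082 and then 25862, 25862 and 22836 (log2 fold change 0.77 ± 0.75, adjusted p = 0.427). The complement gene C1QA was 3984, 1600 and 1178 and then 3540, 3034 and 4844 (log2 fold change 0.93 ± 0.85, adjusted p = 0.403). For these 3 genes, replicate 1 of day 12 lay within or above the day 16 range and the other replicates below it. The summed level of the list was 100544 to 312354 in the day 12 samples and 214319 to 295730 on day 16. Without day 12 replicate 1 the log2 fold change of CD163 was 2.32 (adjusted p = 0.017).

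The called macrophage genes were receptors of tissue macrophages. MSR1, a scavenger receptor, was 182, 35 and 24 and then 322, 274 and 519 (log2 fold change 2.71 ± 0.67, adjusted p = 0.00196). TIMD4, a receptor for dying cells, was 307, 142 and 75 and then 866, 982 and 628 (log2 fold change 2.44 ± 0.73, adjusted p = 0.00859), and lost its call without day 12 replicate 3 (1.95). FOLR2, a folate receptor, was 826, 190 and 158 and then 1254, 1087 and 1797 (log2 fold change 2.20 ± 0.88, adjusted p = 0.0449). Its call was lost with the replicate block (2.20, adjusted p = 0.0511) and without any one of 5 of the 6 samples, while without day 12 replicate 1 it was 2.95. In the list of lipid handling genes, GPNMB, a glycoprotein of lipid-laden macrophages, rose with overlapping groups (1401, 170 and 134, then 2000, 1332 and 2376; log2 fold change 2.54 ± 0.50, adjusted p = 2.25e-04), with a value of 1.92 and no call without day 12 replicate 3. CD14, the co-receptor for lipopolysaccharide, was 3183, 1304 and 754 and 896, 906 and 1742 (log2 fold change -0.38 ± 0.92, adjusted p = 0.773), and the mannose receptor gene MRC1 was 17373, 3576 and 2278 and 5644, 5045 and 6256 (log2 fold change 0.11 ± 0.71, adjusted p = 0.927). In CD43- cells 8 of the 36 genes fell and none rose, against 5.97% and 4.46% of all genes there. CD163 was 32, 936 and 838 there on day 12 and 19, 26 and 19 on day 16, CD14 was 13, 249 and 337 and 5, 2 and 6, and the difference of change passed the test in 11 genes, all with the higher change in CD43+ cells (2.86% of all genes). On day 9 CD163 stood at 51, 54 and 80 and C1QA at 10, 56 and 18.

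The azurophil granule is the first granule of neutrophil precursors. None of 15 azurophil granule genes was called, nor did any have an adjusted p below 0.05 (limma), and their median log2 fold change was 0.00. MPO and LYZ, which encode myeloperoxidase and lysozyme, stood at the highest possible value in all 6 samples, so that a change in them could not have been seen. ELANE, which encodes neutrophil elastase, was 1856, 3605 and 3605 and 6912, 3298 and 6242 (log2 fold change 0.85 ± 0.55, adjusted p = 0.223), and AZU1 was 15842, 22812 and 22812 and 37166, 20394 and 25836 (log2 fold change 0.42 ± 0.60, adjusted p = 0.607). Among 27 genes of the later specific and gelatinase granules, 3 rose (11.1%, against 3.79% of all genes) and 1 fell. LCN2, an iron-trapping protein, was 64, 180 and 99 and then 429, 568 and 358 (log2 fold change 2.07 ± 0.59, adjusted p = 0.00609, not called at 1.72 without day 12 replicate 1 or 1.90 without day 16 replicate 2). The folate-binding protein gene FOLR3 (86, 16 and 34, then 244, 85 and 318; log2 fold change 2.34 ± 0.49, adjusted p = 4.10e-04, not called at 1.77 without day 12 replicate 2 or 1.96 without day 16 replicate 3) and CRISP3 (2, 3 and 2, then 16, 2 and 54; log2 fold change 2.09 ± 0.63, adjusted p = 0.00934, not called at 1.96 without day 16 replicate 1 or 1.11 without day 16 replicate 3) rose by the test although their groups overlapped or touched. MMP9, which encodes gelatinase B, fell from 4608, 1491 and 1066 to 350, 280 and 778 (log2 fold change -2.19 ± 0.57, adjusted p = 0.00311, not called at -1.57 without day 12 replicate 1 or -1.89 without day 16 replicate 2), with replicate 1 far the highest on day 12. In the CD43- cells 13 of the 15 azurophil genes rose, against 4.46% of all genes there. Over the 15 genes the median change there was 4.36 on the log2 scale. ELANE was 1, 2 and 11 there on day 12 and 68, 354 and 200 on day 16. MPO and LYZ were left aside, because their CD43+ change is fixed at 0 by the top value. Of the other 13, 10 had a lower change in CD43+ cells by the test of the difference, against 2.17% of all genes.

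Mast cells and eosinophils were followed through their granule proteins and receptors. Of 16 mast cell and basophil genes 5 rose (31.25%, against 3.79% of all genes) and none fell, with a median log2 fold change of 1.22. The summed level of the list was 11435 to 12887 in the day 6 CD43+ samples and 8232 to 9818 on day 9. It was 4698 to 8234 on day 12 and 9869 to 13832 on day 16, which overlapped the day 6 range. In CD43- cells 4 of the 16 rose and 1 fell, against 4.46% and 5.97% of all genes there. The tryptase genes led the rises in CD43+ cells. TPSAB1 was 15, 19 and 102 on day 12 and 276, 214 and 380 on day 16 (log2 fold change 3.14 ± 0.62, adjusted p = 2.11e-04), TPSB2 was 44, 50 and 58 and then 408, 231 and 492 (log2 fold change 2.81 ± 0.46, adjusted p = 2.56e-05), and TPSD1 was 12, 26 and 12 and then 196, 83 and 258 (log2 fold change 3.29 ± 0.50, adjusted p = 8.73e-06). The groups did not overlap for any of the 3, which are near-identical copies and may share reads. On day 9 none of the 3 was above 5 in any sample. FCER1A, the alpha chain of the IgE receptor, was 8, 0 and 4 and then 18, 13 and 18 (log2 fold change 2.27 ± 0.49, adjusted p = 4.92e-04, not called at 1.36 without day 12 replicate 2, and adjusted p = 0.0602 with only the compared populations fitted). The ectoenzyme gene ENPP3 was 1, 0 and 2 and then 7, 6 and 16 (log2 fold change 2.44 ± 0.53, adjusted p = 6.14e-04, not called at 0.81 with a pseudocount of 10). ENPP3 passed the limit on low values only through other populations, and was not tested when only the compared populations were fitted. CPA3, the carboxypeptidase of mast cell granules, was 112, 98 and 112 and then 236, 196 and 473 (log2 fold change 1.38 ± 0.47, adjusted p = 0.0191), and MS4A2, a chain of the IgE receptor, was 6, 14 and 12 and then 34, 22 and 22 (log2 fold change 1.25 ± 0.39, adjusted p = 0.0121). Neither reached 4-fold. Of 11 eosinophil genes none was called, all 11 had positive fold changes, and the median was 0.86. In CD43- cells 9 of them rose, against 4.46% of all genes there. By the test of the difference 7 had a lower change in CD43+ cells, against 2.17% of all genes. The eosinophil peroxidase gene EPX was 3172, 5292 and 4269 and 10397, 6121 and 10397 (log2 fold change 1.07 ± 0.88, adjusted p = 0.345), with no overlap of the groups.

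Megakaryocyte genes split the replicates of both days. 3 of 24 rose (12.5%, against 3.79% of all genes) and none fell, with a median log2 fold change of 1.06 and 22 positive. On day 12 replicate 1 was the lowest in 22 of the 24 genes and replicate 2 the highest in 23. On day 16 replicate 2 was the highest and replicate 3 the lowest in 23 each. The summed level of the list was 45565 to 119243 on day 12 and 63757 to 250965 on day 16, after 160978 to 180143 on day 9, above every day 12 sample and within the day 16 range. TUBB1, the platelet tubulin, was 513, 1908 and 894 and then 5310, 8076 and 2192 (log2 fold change 2.25 ± 0.65, adjusted p = 0.00676). RGS18, a regulator of platelet signalling, was 738, 1137 and 1188 and then 4195, 8086 and 2238 (log2 fold change 2.08 ± 0.55, adjusted p = 0.00352). CLEC1B, a platelet receptor, was 211, 1312 and 650 and then 2692, 4480 and 1080 (log2 fold change 2.06 ± 0.66, adjusted p = 0.0137, not called at 1.35 without day 12 replicate 1 or 1.96 without day 16 replicate 1 or 1.59 without day 16 replicate 2, and adjusted p = 0.0614 with only the compared populations fitted). TUBB1 and RGS18 lost their call without day 12 replicate 1 (1.80 and 1.86) or day 16 replicate 2 (1.83 and 1.62). PF4, platelet factor 4, was 1752, 8272 and 5193 and 10832, 15858 and 5482 (log2 fold change 1.21 ± 0.90, adjusted p = 0.29), and the integrin gene ITGA2B was 3207, 10832 and 8272 and 10436, 12840 and 6140 (log2 fold change 0.51 ± 0.45, adjusted p = 0.387). In the CD43- cells 17 of the 24 rose, against 4.46% of all genes there, and PF4 was 0, 14 and 136 and then 1062, 3224 and 1582. The difference of change passed the test in 13 of the 24, all with the lower change in CD43+ cells, against 2.17% of all genes.

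Of 10 globin genes 1 rose and 1 fell, against 3.79% and 5.26% of all genes. HBZ, which encodes the embryonic zeta globin, fell from 2378, 3854 and 2770 to 163, 158 and 302 (log2 fold change -3.88 ± 0.85, adjusted p = 6.09e-04), after 90700, 17338 and 90700 on day 9. HBE1, which encodes the embryonic epsilon globin, was 2618, 9248 and 6256 and 7780, 8977 and 3658 (log2 fold change 0.25 ± 0.67, adjusted p = 0.797), after the highest possible value on day 9. HBG2, which encodes a fetal gamma globin, was 2700, 9714 and 6064 and then 22812, 37166 and 11498 (log2 fold change 1.98 ± 0.93, adjusted p = 0.0891), with no overlap of the groups but no call, after 90700, 48030 and 48030 on day 9. HBB, the adult beta globin gene, rose by the test, at 1, 0 and 1 and then 8, 6 and 6 (log2 fold change 2.26 ± 0.51, adjusted p = 7.97e-04, not called at 1.93 without day 12 replicate 2), all close to 0. SLC4A1, which encodes the anion exchanger of the red cell membrane, fell from 405, 452 and 338 to 6, 3 and 17 (log2 fold change -5.64 ± 0.68, adjusted p = 3.18e-07) after 8272, 1686 and 8797 on day 9, and the carbonic anhydrase gene CA1 fell from 6, 22 and 12 to 4, 0 and 3 (log2 fold change -2.24 ± 0.68, adjusted p = 0.0102, not called at -1.81 without day 12 replicate 2 or -1.52 without day 16 replicate 2). The blood group genes KEL (158, 338 and 258, then 1282, 1559 and 878; log2 fold change 2.33 ± 0.48, adjusted p = 3.39e-04) and RHCE (7, 22 and 28, then 85, 120 and 44; log2 fold change 2.15 ± 0.62, adjusted p = 0.00639, not called at 1.59 without day 12 replicate 1 or 1.83 without day 16 replicate 2) rose from day 12, but on day 9 KEL had been 1576, 1192 and 1436 and RHCE 116, 75 and 134. Of the 33 erythroid and haem synthesis genes these 4 were called, 2 in each direction, and the median was 0.58. The share was 6.06% each way, against 3.79% of all genes risen and 5.26% fallen. The erythroid transcription factor gene KLF1 was 114, 216 and 218 and then 486, 526 and 350 (log2 fold change 1.35 ± 0.44, adjusted p = 0.0159), after 2612, 1828 and 2074 on day 9. In CD43- cells HBZ moved from a mean of 52.7 to 832, and its difference of change was -8.93 ± 1.20 (adjusted p = 1.16e-05).

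**Figure D3:**
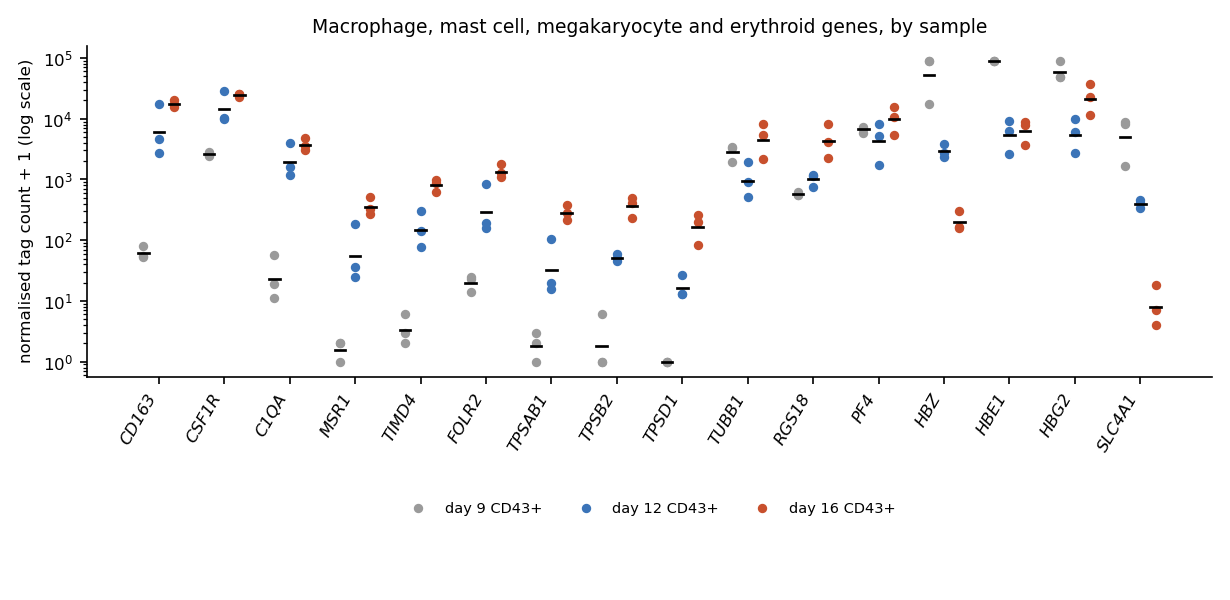
Normalised tag count + 1 (log axis) of 16 macrophage, mast cell, megakaryocyte and erythroid genes in each CD43+ sample of days 9, 12 and 16 (1 point a sample, bars at the mean of the log values). The tryptase genes and MSR1, TIMD4 and FOLR2 lie higher in the 3 day 16 samples than in the 3 day 12 samples, while HBZ and SLC4A1 lie lower, and the megakaryocyte genes spread widely within each day.

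None of 10 haematopoietic transcription factor genes was called, and their median log2 fold change was 0.54. RUNX1, needed for blood to emerge from endothelium, was 5697, 5550 and 5775 and 6575, 5396 and 6688 (log2 fold change 0.13 ± 0.30, adjusted p = 0.771), and SPI1, which encodes the myeloid factor PU.1, was 7746, 5870 and 6052 and 8050, 6442 and 7746 (log2 fold change 0.18 ± 0.90, adjusted p = 0.9). GATA2, a factor of progenitors and mast cells, was 932, 1888 and 1724 and then 5632, 4148 and 4422 (log2 fold change 1.70 ± 0.31, adjusted p = 7.87e-05), which passed the adjusted p but not 4-fold. MYB, needed by definitive and not by primitive blood, was 1167, 2054 and 2700 and then 5550, 3890 and 3158 (log2 fold change 1.13 ± 0.53, adjusted p = 0.0861). Of 25 myeloid transcription factor genes 2 rose and 1 fell, against 3.79% and 5.26% of all genes. EGR1 and EGR2 rose and are described with the immediate early genes. IRF4, a factor of lymphoid and dendritic cells, fell from 527, 174 and 250 to 60, 64 and 42 (log2 fold change -2.36 ± 0.52, adjusted p = 6.38e-04). Without day 12 replicate 1 the value of IRF4 was -1.92 and was not called.

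Of 29 progenitor genes 5 rose (FLT3, PROM1, HOXA9, MEIS1 and SPINK2) and none fell, with a median log2 fold change of 0.55. The share that rose was 17.2%, against 3.79% of all genes. In CD43- cells 1 of the 29 rose and 2 fell, against 4.46% and 5.97% of all genes there. The summed level of the list was 15060 to 20415 in the day 12 CD43+ samples and 18918 to 29236 on day 16. Both ranges lay below the 38293 to 40857 of the day 9 CD43+ samples. FLT3, a cytokine receptor of early lymphoid and myeloid progenitors, was 2, 2 and 3 and then 25, 30 and 35 (log2 fold change 3.22 ± 0.53, adjusted p = 2.56e-05). PROM1, which encodes CD133, was 1, 2 and 4 and then 20, 11 and 32 (adjusted p = 1.21e-06), and the homeobox gene HOXA9 was 0, 0 and 4 and then 16, 4 and 36 (log2 fold change 3.10 ± 0.75, adjusted p = 0.00164), with the groups touching at 4. These 3 genes stayed far below the median value of 197 that each sample has. MEIS1, a partner of HOX proteins that megakaryocytes also express, was 362, 1252 and 676 and then 4332, 6592 and 1397 (log2 fold change 2.34 ± 0.38, adjusted p = 1.99e-05), ranked the replicates as the megakaryocyte genes did, and lost its call without day 12 replicate 1 (1.89) or day 16 replicate 2 (1.87). CD34 was 328, 534 and 560 and 633, 680 and 467 (log2 fold change 0.34 ± 0.34, adjusted p = 0.439), and KIT was 316, 582 and 492 and 704, 786 and 264 (log2 fold change 0.23 ± 0.37, adjusted p = 0.647).

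None of 40 replication and mitosis genes was called, while 10 had an adjusted p below 0.05 on the lower side (25.0%, close to the 21.1% of all genes) and 1 on the higher side. In 20 of the 40 all day 16 values lay below all day 12 values, an order found in 23.6% of all genes, and the median log2 fold change was -0.39. MKI67, which encodes the proliferation antigen Ki-67, was 8675, 7903 and 7154 and then 4032, 4425 and 4712 (log2 fold change -0.85 ± 0.22, adjusted p = 0.00338). The cyclin-dependent kinase inhibitor gene CDKN1A was 3516, 2755 and 2440 and then 5312, 5703 and 5406 (log2 fold change 0.93 ± 0.32, adjusted p = 0.0195).

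Immediate early genes changed differently in the 2 populations. Of 28 immediate early and heat shock genes 3 rose (10.7%, against 3.79% of all genes) and 1 fell in CD43+ cells (median 0.57). In CD43- cells 10 fell, against 5.97% of all genes there, and none rose (median -1.17). The difference of change passed the test in 14 of the 28, all with the higher change in CD43+ cells, against 2.86% of all genes. FOS, a subunit of the AP-1 factor, was 20338, 11964 and 10397 on day 12 and at the highest possible value in all 3 day 16 samples (log2 fold change 2.73 ± 0.61, adjusted p = 6.99e-04), and in CD43- cells it was 90700, 90700 and 25776 and then 17284, 25776 and 25776 (difference of change 4.14 ± 0.86, adjusted p = 0.00143). EGR1, a zinc finger factor induced by serum and growth factors, was 2978, 2202 and 2554 and then 18763, 13319 and 18763 (log2 fold change 2.71 ± 0.56, adjusted p = 3.18e-04), and in CD43- cells 20412, 13319 and 12007 and then 9722, 10080 and 10080 (difference 3.28 ± 0.78, adjusted p = 0.00473). In both genes the CD43+ samples went from below all CD43- samples on day 12 to above all of them on day 16. EGR2, which also acts in macrophages, was 674, 291 and 480 and then 3748, 2754 and 3888 (log2 fold change 2.91 ± 0.54, adjusted p = 1.03e-04), against 714, 758 and 700 and 64, 122 and 84 in CD43- cells (difference 5.95 ± 0.76, adjusted p = 6.19e-06). JUN was 6068, 3819 and 4783 and then 14678, 10436 and 14009 (log2 fold change 1.42 ± 0.30, adjusted p = 3.77e-04), under 4-fold.

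Not all of the list moved this way. NR4A3, an inducible nuclear receptor, fell in both populations, from 788, 402 and 558 to 75, 52 and 64 in CD43+ cells (log2 fold change -3.14 ± 0.53, adjusted p = 3.79e-05) and from 952, 1042 and 1734 to 6, 1 and 10 in CD43- cells. EGR4, which is outside the list and was named for its difference of change, was 6, 17 and 13 and then 80, 60 and 34 in CD43+ cells (log2 fold change 2.21 ± 0.77, adjusted p = 0.0233) and 34, 69 and 215 and then 2, 4 and 0 in CD43- cells. Its call in CD43+ cells was lost without day 12 replicate 1 (1.81), day 16 replicate 1 (1.94) or day 16 replicate 2 (2.14). These genes also respond to dissociation and sorting, and the part of handling in them was not tested.

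**Figure D4:**
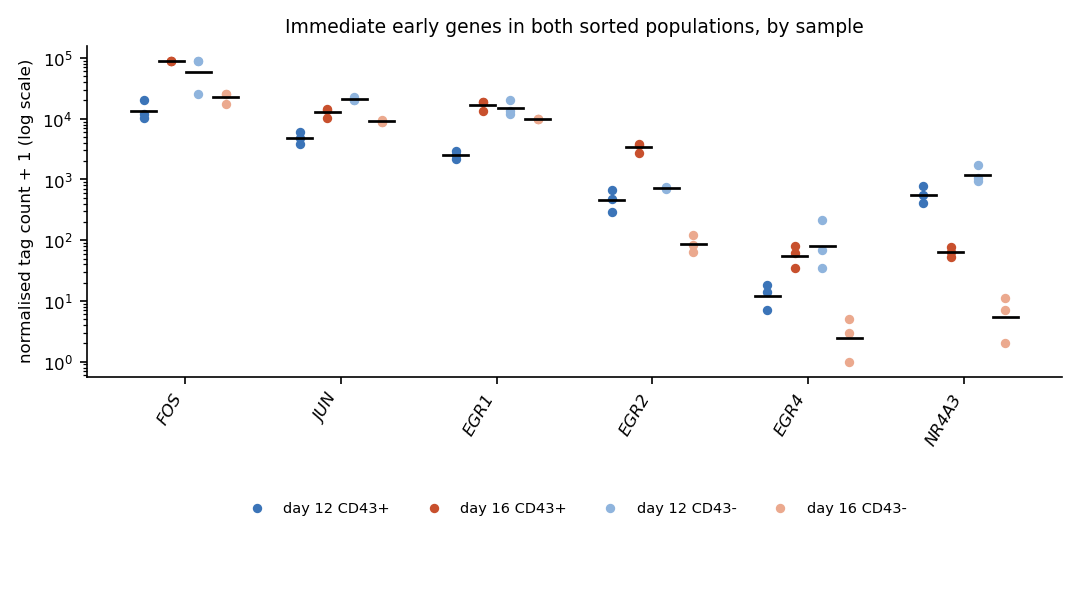
Normalised tag count + 1 (log axis) of 6 immediate early genes in each CD43+ and CD43- sample of days 12 and 16 (1 point a sample, bars at the mean of the log values, 90700 being the highest possible value). FOS, JUN, EGR1, EGR2 and EGR4 are higher on day 16 in CD43+ cells and lower on day 16 in the mean of CD43- cells, and NR4A3 is lower on day 16 in both.

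Signalling genes moved in small numbers. Of 28 chemokine and receptor genes 4 rose (14.3%) and 2 fell, and of 29 cytokine genes 3 rose (10.3%) and 1 fell. Of 36 pattern receptor and inflammasome genes 3 rose (8.33%) and none fell. Over all genes 3.79% rose and 5.26% fell. CCL8, a chemokine that attracts monocytes, was listed at 0 in all day 12 samples and at 32, 14 and 46 on day 16 (adjusted p = 2.86e-11). CXCL12, the ligand of CXCR4, was 34, 16 and 24 and then 200, 218 and 252 (log2 fold change 3.18 ± 0.47, adjusted p = 6.35e-06), while its mean in CD43- cells went from 935 to 241 (difference 4.95 ± 0.67, adjusted p = 1.22e-05). CXCR1, a receptor for interleukin-8, was 38, 13 and 9 and then 158, 90 and 253 (log2 fold change 3.13 ± 0.60, adjusted p = 1.60e-04). CCL22, a chemokine of dendritic cells and macrophages, fell from 196, 108 and 143 to 30, 33 and 26 (log2 fold change -2.25 ± 0.75, adjusted p = 0.0174, not called at -2.04 without day 12 replicate 1), and IL11, a cytokine of stromal cells, from 54, 97 and 112 to 13, 1 and 4 (log2 fold change -4.03 ± 0.57, adjusted p = 3.65e-06). CXCL5, a chemokine for neutrophils, was 52, 167 and 86 and then 444, 883 and 190 (log2 fold change 2.20 ± 0.70, adjusted p = 0.0136, not called at 1.80 without day 12 replicate 1 or 1.67 without day 16 replicate 2), and CX3CL1, the membrane-bound fractalkine, fell from 20, 20 and 16 to 0, 7 and 4 (log2 fold change -2.52 ± 0.50, adjusted p = 2.08e-04, not called at -1.63 without day 16 replicate 1). Among the cytokines that rose, the stress-induced GDF15 was 42, 44 and 24 and then 184, 194 and 127 (log2 fold change 2.19 ± 0.36, adjusted p = 2.73e-05, not called at 1.92 without day 12 replicate 3), and IL6 was 1, 0 and 2 and then 4, 10 and 10 (log2 fold change 2.22 ± 0.71, adjusted p = 0.0139, not called at 1.79 without day 12 replicate 2 or 2.03 without day 16 replicate 2).

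Pattern receptors sense microbes. The endosomal receptor gene TLR8 was 596, 239 and 236 and then 1497, 1364 and 2124 (log2 fold change 2.33 ± 0.46, adjusted p = 2.35e-04), and FPR3, a formyl peptide receptor of macrophages, was 20, 0 and 2 and then 49, 38 and 41 (log2 fold change 3.45 ± 0.62, adjusted p = 7.06e-05). TNF, the tumour necrosis factor gene, was 154, 49 and 96 and then 326, 453 and 292 (log2 fold change 1.95 ± 0.66, adjusted p = 0.0189), which is just under 4-fold.

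Of 27 complement genes 2 rose (7.41%) and 2 fell, against 3.79% and 5.26% of all genes. C3, the central component, fell from 3410, 1046 and 903 to 262, 290 and 308 (log2 fold change -2.36 ± 0.49, adjusted p = 3.50e-04). CFB, which encodes factor B, rose (32, 8 and 10, then 68, 67 and 79; log2 fold change 2.28 ± 0.63, adjusted p = 0.00456, not called at 1.92 without day 12 replicate 2). For C3, replicate 1 was far the highest on day 12, and without it the value was -1.76 and not called. CR1, which encodes the complement receptor CD35, was 1566, 1386 and 923 and then 6012, 2278 and 10844 (log2 fold change 2.07 ± 0.59, adjusted p = 0.00579), and lost its call without day 16 replicate 3 (1.55), day 16 replicate 1 (1.98) or day 12 replicate 3 (1.85). Of 8 phagocyte oxidase genes none was called (median 0.04), nor was any of 17 lysosomal cathepsin genes (median 0.48).

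Markers of other cell types were also measured in the CD43+ samples. Of 22 genes for proteins secreted by endoderm and yolk sac 8 rose (36.4%, against 3.79% of all genes) and none fell. Their median log2 fold change was 1.40. AFP, which encodes alpha-fetoprotein, was 30, 68 and 88 and then 462, 446 and 193 (log2 fold change 2.57 ± 0.65, adjusted p = 0.00227). APOA4, an apolipoprotein gene, was 6, 4 and 6 and then 149, 168 and 86 (log2 fold change 4.38 ± 0.76, adjusted p = 4.94e-05). Both were far higher in CD43- cells, where AFP had means of 5170 and 14440 and APOA4 of 337 and 2779. The summed level of the 22 genes was 1749 to 2318 in the day 12 and 4231 to 4975 in the day 16 CD43+ samples, against 53287 to 83601 and 69001 to 81156 in the CD43- samples. The part of carried-over CD43- cells or free RNA in this rise was not tested. Of 31 mesenchymal and matrix genes 1 fell, against 5.26% of all genes. It was FBN1, the fibrillin gene, at 728, 698 and 915 and then 212, 110 and 216 (log2 fold change -2.17 ± 0.28, adjusted p = 1.07e-06, not called at -1.85 without day 16 replicate 2). Of the 31, 8 had an adjusted p below 0.05 on the lower side (25.8%, close to the 21.1% of all genes). Their summed level over the 31 was 37335 to 66696 on day 12 and 20235 to 35023 on day 16. COL1A1, a collagen gene, was 5777, 3241 and 6690 and then 2262, 2000 and 1478 (log2 fold change -1.41 ± 0.35, adjusted p = 0.00223). Of 27 endothelial genes 2 rose (7.41%, against 3.79% of all genes). They were the angiopoietin receptor gene TEK (28, 58 and 81, then 326, 413 and 117; log2 fold change 2.28 ± 0.35, adjusted p = 1.21e-05, not called at 1.86 without day 12 replicate 1 or 1.92 without day 16 replicate 2) and PROX1 (11, 12 and 6, then 30, 52 and 56; log2 fold change 2.14 ± 0.40, adjusted p = 1.28e-04, not called at 1.86 without day 12 replicate 3 or 1.98 without day 16 replicate 3). The VEGF receptor gene KDR was 350, 549 and 280 and then 1485, 1506 and 634 (log2 fold change 1.57 ± 0.36, adjusted p = 8.87e-04).

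Of 23 lymphoid genes 1 rose and 1 fell, against 3.79% and 5.26% of all genes. GATA3, a factor of T cells that other tissues also use, rose from 19, 4 and 6 to 49, 50 and 58 (log2 fold change 2.58 ± 0.33, adjusted p = 5.90e-07). The natural killer receptor gene KLRD1 fell from 164, 132 and 136 to 14, 19 and 24 (log2 fold change -2.88 ± 0.35, adjusted p = 3.18e-07). Of 14 pluripotency genes 1 rose and 1 fell, against 3.79% and 5.26% of all genes. NANOG fell from 27, 24 and 34 to 8, 2 and 0 (log2 fold change -3.28 ± 0.69, adjusted p = 4.27e-04). LEFTY1 rose from 10, 64 and 32 to 236, 280 and 127 (log2 fold change 2.83 ± 0.86, adjusted p = 0.00951, not called at 2.14 without day 12 replicate 1). On day 9 NANOG stood at 4, 4 and 4, and it fell in the CD43- cells as well (-3.54, adjusted p = 1.60e-04).

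Metabolic lists held few calls. None of 22 cholesterol synthesis genes was called, but 10 had an adjusted p below 0.05 on the lower side (45.5%, against 21.1% of all genes) and 2 on the higher side, with a median log2 fold change of -0.40. HMGCS1, an early enzyme of the pathway, was 3192, 11204 and 10085 and then 2232, 2578 and 2248 (log2 fold change -1.60 ± 0.31, adjusted p = 1.74e-04). Of 30 glycolysis and hypoxia genes 1 rose (3.33%, against 3.79% of all genes). It was EGLN3, an oxygen-sensing prolyl hydroxylase, at 84, 164 and 88 and then 996, 1048 and 536 (log2 fold change 2.94 ± 0.31, adjusted p = 3.40e-08). Of 41 replication-dependent histone genes 7 rose (17.1%, against 3.79% of all genes) and 1 fell, with a median of 1.07, and their transcripts lack a poly(A) tail. HIST1H3G was 1, 0 and 2 and then 24, 34 and 24 (log2 fold change 3.94 ± 0.44, adjusted p = 8.93e-08), and HIST1H4C fell from 32, 104 and 158 to 4, 30 and 2 (log2 fold change -3.40 ± 0.67, adjusted p = 2.04e-04).

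Beyond the lists, the largest rises among genes with non-overlapping groups and ordinary names were led by IFI44L, followed by GIMAP7, a small GTPase of immune cells, at 2, 1 and 3 and then 104, 108 and 126 (log2 fold change 5.30 ± 0.45, adjusted p = 9.19e-10), with a larger change than in CD43- cells (difference 2.89 ± 0.64, adjusted p = 0.00256). CR1L, a complement receptor-like gene, was 0, 4 and 0 and then 32, 42 and 24 (log2 fold change 4.26 ± 0.59, adjusted p = 2.58e-06). APOC3, a further apolipoprotein gene, was 0, 4 and 0 and then 44, 76 and 16 (log2 fold change 4.51 ± 1.05, adjusted p = 0.00115). BOLA2, an iron-sulphur chaperone with a near-identical copy, was 6, 10 and 6 and then 190, 203 and 210 (log2 fold change 4.63 ± 0.41, adjusted p = 1.78e-09), but had been 604, 562 and 562 on day 9, and in CD43- cells went from 0, 6 and 0 to 84, 72 and 70.

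The largest falls were of genes whose day 9 values also lay below those of day 12. MTRNR2L10, 1 of several nuclear copies of the mitochondrial ribosomal RNA gene, was 5198, 4850 and 3898 on day 12 and 8, 10 and 7 on day 16 (log2 fold change -8.96 ± 0.43, adjusted p = 1.32e-14), against 101, 104 and 87 on day 9. Of 8 such copies tested, grouped after their values were seen, 6 fell in CD43+ and 7 in CD43- cells. Over all genes 5.26% and 5.97% did so. BCYRN1, a brain cytoplasmic RNA with many genomic relatives, fell from 630, 816 and 861 to 8, 11 and 1 (log2 fold change -6.99 ± 0.42, adjusted p = 1.48e-12), against 164, 167 and 162 on day 9. NRSN1, which encodes a neuronal membrane protein, was 566, 237 and 446 on day 12 and listed at 0 in all day 16 samples (adjusted p = 6.79e-12), against 0, 2 and 3 on day 9. The read-through gene HSPE1-MOB4 was 207, 316 and 295 and then 6, 0 and 0 (adjusted p = 8.30e-06), against 48, 84 and 66 on day 9. The histone gene HIST2H2AA3, which has an identical copy, was 458, 464 and 631 and then listed at 0 (adjusted p = 3.21e-04), against 228, 353 and 310 on day 9. Both had thus been well above their day 16 values on day 9. The largest fall under a clone-based name was that of AC090498.1, at 316, 5707 and 6922 on day 12, 0, 12 and 9 on day 9 and listed at 0 in all day 16 samples (adjusted p = 6.67e-08). All 6 of these genes also fell in CD43- cells. Several of them share reads with near-identical copies or overlap other genes, and how the counting treated these reads is uncertain.

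Of the 750 genes that rose in CD43+ cells, 153 had a higher change than in CD43- cells, and of the 1041 that fell, 171 had a lower one.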

How the data were processed

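RNA of 34 samples was sequenced from H1 cells, and the 6 CD43+ samples of days 12 and 16 are described, with the CD43- samples of those days and days 6 and 9 beside them. Tags were counted by the authors with RSEM after Bowtie2 alignment against Ensembl transcripts (hg38 per the submitters' processing notes). They deposited GC-normalised tag counts made with EDASeq, full quantile within and between samples and rounded. These deposited values are a score, neither raw counts nor CPM: all samples hold 1 set of sorted values with a sum of 17856940, so depth is unknown, and the values mainly carry ranks. The GC percent of each gene was deposited with them.

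The table held 20255 genes. A value of 10 or more in 3 samples admitted 19788 of them to the test, made with limma 3.58.1 (R 4.3.3, trended variances) on log2(value + 1), in 1 fit of 33 samples without the undifferentiated sample, which has no replicate. Fold changes are on the log2(value + 1) scale and understate those of low genes. The test was tried on simulated data with known answers. The members and gene lists were chosen with earlier results of these data known. Named genes were SPN and PTPRC, the 12 largest rises and falls with non-overlapping groups and ordinary names, the 3 largest with clone-based names, key and most changed genes of each list, and the 5 largest differences of change in each direction. Which of them are described at length was chosen after values were seen, as were the names of SIGLEC1, GBP1 and SPINK2. The labels give no pairing of same-numbered samples, so the replicate block is an alternative only. Promoter stretches come from RefSeq. Some items are not reported here. Alternatives changed the pseudocount, the limit on low values, the scaling, the variance model, the samples fitted, the replicate block and the fold threshold, or left out single replicates.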

Additional observations from a re-analysis of the deposited data

Results flagged for a closer look

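The change from day 12 to day 16 differed between CD43+ and CD43- cells, by the test of the difference itself (limma, adjusted over 19788 genes), in 10 genes named for the size of that difference. 5 had the higher change in CD43+ cells. EGR4 differed by 7.24 ± 1.09 on the log2 scale (adjusted p = 5.54e-05) and EGR2 by 5.95 ± 0.76 (adjusted p = 6.19e-06), both rising in CD43+ and falling in CD43- cells. The microRNA gene MIR3180-1, which has near-identical copies, differed by 6.12 (adjusted p = 0.00563, but 0.053 with only the compared populations fitted and 0.0661 with the replicate block in that fit) and the clone-named AC116366.6 by 5.67 ± 1.09 (adjusted p = 7.23e-04). RP11-1100L3.8 differed by 5.49 ± 0.59 (adjusted p = 7.10e-07), falling in both populations and further in CD43- cells.

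The other 5 had the lower change in CD43+ cells. HBZ, the zeta globin gene, differed by -8.93 ± 1.20 (adjusted p = 1.16e-05), falling in CD43+ and rising in CD43- cells. SLC4A1 differed by -7.11 ± 0.97 (adjusted p = 1.32e-05). 3 clone-named genes that fell in CD43+ cells and were at 13 or below on both days in CD43- cells made up the rest: RP11-809N8.2 with -6.58 ± 0.84 (adjusted p = 6.19e-06), XXbac-BPG32J3.20 with -6.03 ± 1.22 (adjusted p = 0.0012) and RP11-110I1.6 with -5.42 ± 0.60 (adjusted p = 9.12e-07). The last 3 separate the day 12 populations, which were both made of libraries that stood apart from the other days. XXbac-BPG32J3.20 already separated them on day 9, at 210, 146 and 245 in CD43+ cells and 0 in all CD43- samples. RP11-809N8.2 and RP11-110I1.6 stood at 2 or below in all day 9 samples. The part of library making in these differences was not tested.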

How the results depend on the processing

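The counts of called genes depend on the treatment of low values. From day 12 to day 16 the CD43+ cells had 1791 calls, 750 of them higher and 1041 lower. With a pseudocount of 10 these were 604 (195 and 409), with genes required to reach 100 in 3 or more samples 702 (355 and 347), and with a 2-fold threshold 4243 (2289 and 1954). Counting protein-coding genes only, chosen after the data were seen, gave 969 (409 lower), and genes with a mean of at least 100 over the 6 samples gave 293 (132 and 161). Leaving out 1 replicate gave 1651 to 1945 (724 to 897 higher, 900 to 1067 lower). The difference of change was called in 995 genes (566 higher, 429 lower). It was called in 473 with a pseudocount of 10 (287 and 186), in 630 with the limit of 100 (247 lower), in 537 when only the populations compared were fitted (315 and 222), in 507 with the replicate block in that fit (300 and 207) and in 1951 at 2-fold (1108 and 843). Leaving out 1 replicate gave 850 to 1111 (485 to 631 higher, 365 to 480 lower). With the replicate block in the fit of 33 samples 1787 genes were called in CD43+ cells, 1785 of them shared with the 1791. FOLR2 is the 1 named gene whose call that block ended. Same-numbered samples share only a number. The deviations of same-numbered day 12 and day 16 CD43+ samples correlated at -0.08, 0.12 and -0.05, of day 12 and day 16 CD43- samples at 0.14, 0.07 and 0.03, of day 12 CD43+ and CD43- samples at 0.08, 0.11 and 0.04, and of day 16 CD43+ and CD43- samples at -0.02, 0.03 and 0.04. Only between the day 12 populations did each sample correlate best with its own number, a hint from the data and not from the design.

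Of the 88 called genes that are named with values, 38 kept their call under all alternatives that tested them. The call was lost in 28 with a pseudocount of 10, in 19 with one of 0.1 and in 34 without some single replicate, 15 of them without day 12 replicate 1. Some genes of low level were not tested under every alternative, which is not counted as a loss. RP11-110I1.6, CCL8 and HBB, for instance, were each tested under 14 of the 18 alternatives. CLEC1B, FCER1A, HLA-DQB1 and IFNB1 lost it at the same fold change when only the compared populations were fitted. The 19 include the macrophage genes MSR1, TIMD4 and FOLR2, the mast cell gene TPSAB1, the megakaryocyte genes RGS18 and CLEC1B, and TLR8, CR1, CXCL5 and CXCR1, and the 28 are mostly genes of low level, such as FLT3, PROM1, HOXA9, GATA3, NANOG and CCL8. None of these changed direction. Among the named genes that were not called, the sign of the log2 fold change turned without single replicates in CD14 (-0.38, then -0.86 to 0.18), MRC1 (0.11, then -0.49 to 0.98), ITGA2B (0.51, then -0.015 to 0.86), HBE1 (0.25, then -0.26 to 0.65) and KIT (0.23, then -0.058 to 0.73). No statement rests on these signs. Depth is unknown, values at the top of the scale are compressed, and genes near 0 cannot show a fall.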
